A study of Homo sapiens with 118 samples.

Results

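The insulin-like growth factor (IGF) axis was followed through 15 rows of the count table that belong to 10 genes: the ligands IGF1 and IGF2, the acid-labile subunit IGFALS, the binding proteins IGFBP1 to IGFBP6, and the growth hormone receptor GHR. They were chosen by name, as every row whose name without its probe number was one of these symbols, out of 22068 rows and 19470 symbols in all. Each row counts the reads of 1 TempO-Seq detector probe, a pair of DNA oligonucleotides that are ligated only where both lie side by side on the RNA, so a gene with several probes has several rows. Differentiated HepaRG cells, a human hepatic line that forms hepatocyte-like and biliary-like cells, were exposed from day 7 for 72 h, with daily renewal, to 1 of 8 inhibitors of histone deacetylases (HDACs) at 5 concentrations, C1 (lowest) to C5 (highest). The ranges in µM were 0.404778 to 23.5 for vorinostat, 4.94 to 94.5 for scriptaid, 0.001468 to 0.084 for panobinostat, 0.018811 to 1.5237 for trichostatin A, 0.177222 to 3.9 for mocetinostat, 1.143333 to 44 for tacedinaline and 0.041722 to 0.86 for apicidin. Valproic acid is labelled 100.478 to 3038, and its unit is not settled, since the treatment text gives the same digits in µM with the decimal point elsewhere. The first 4 chemicals are hydroxamates, mocetinostat and tacedinaline are benzamides, apicidin is a cyclic tetrapeptide and valproic acid is a branched short-chain fatty acid. The 118 libraries fell into 40 groups, 38 of them with 3 libraries and 2 (panobinostat C3 and trichostatin A C4) with 2, and the replicate numbers 1 to 3 stood for 3 cryopreserved HepaRG batches. Apicidin, mocetinostat, panobinostat, trichostatin A and valproic acid lay on plate H, and scriptaid, tacedinaline and vorinostat on plate E. All cells are of a single line from a liver tumour of chronic hepatitis C, labelled as liver progenitor cells and described as differentiated before thawing, and all were held in induction medium during exposure. Untreated or solvent-treated cells were not analysed here, so C1 of the same chemical was the reference for every change.

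In the circulation most IGF-I travels with a binding protein and the acid-labile subunit, and the liver is its main source. Growth hormone acts on hepatocytes through GHR, the kinase JAK2 and the transcription factors STAT5A and STAT5B, and raises the transcription of IGF1, IGFALS and IGFBP3. The 6 binding proteins hold IGFs away from their receptor or present them to it. In the liver IGFBP1, IGFBP2 and IGFBP4 are products of hepatocytes, IGFBP3 is made largely by non-parenchymal cells, and IGFBP5 and IGFBP6 are best known from mesenchymal cells.

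Library totals ranged from 1061359 to 5250260 counts (median 3702007), so that 1 count was worth 0.199 to 0.912 CPM (counts scaled to a common library size). Of 116 within-group pairs of libraries, the lowest correlation of log2 CPM was 0.796. The libraries mocetinostat C2 replicate 3, scriptaid C4 replicate 3 and trichostatin A C1 replicate 3 had the lowest correlations with both of their group mates (r = 0.796 and 0.869, 0.797 and 0.821, 0.861 and 0.869) and are called the libraries that stood apart. They were picked after the values were seen, with no limit set beforehand. Next in order came apicidin C4 replicate 1 (r = 0.881 and 0.890) and mocetinostat C3 replicate 1 (0.877 and 0.892), and member calls at C5 and by trend were counted without each of these 5 libraries. The hepatocyte marker list (12 rows of 10 genes) summed to 37951 to 61573 CPM per library at C1 and 3303 to 27804 CPM at C5 in the 7 chemicals other than trichostatin A, where it held 12304, 49133 and 53247 CPM at C1 and 35659 to 44189 CPM at C5. Of its 12 rows, 10 to 12 fell at C5 in each of these 7 chemicals, where 6.22% to 24.9% of all tested features fell. In trichostatin A 0 of them fell, where only 0.0154% of all tested features did, so this 0 does not set the markers apart. The biliary list summed to 65.5 to 149 CPM at C1 and 87.9 to 214 CPM at C5 in the 7 chemicals, with EPCAM at 0 in 113 and CFTR at 0 in 110 of 118 libraries. Over all 8 chemicals 11 of its 33 tests rose and 0 fell, where 11.6% of the tests of all features rose and 13.4% fell. The stellate and fibroblast list summed to 173 to 275 CPM at C1 and 98.5 to 235 CPM at C5 in the 7 chemicals, and the macrophage list to 25.3 to 129 and 16.1 to 51.7 CPM with PTPRC at 0 in all 118 libraries. Over all 8 chemicals the stellate and fibroblast list gave 8 rises and 27 falls in 64 tests (12.5% and 42.2%), and the macrophage list 0 rises and 3 falls in 16 (0% and 18.8%). The endothelial list never passed 15.8 CPM at C1 or 5.86 CPM at C5. In lysates of whole wells, fewer cells of a type and less RNA per cell cannot be told apart, and the part of these shifts in the results below was not tested.

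The sequences upstream of 3 binding protein genes are shown because IGFBP3 and IGFBP5 rose together, and IGFBP4 fell, in the same 4 chemicals. Each run is the 250 bases before the RefSeq transcription start (GRCh38.p14), written along the gene, with capitals for matches on either strand to 3 motifs: the letters GGGCGG of the GC box, the letters TATAAA found near many start sites, and the letters GTTAAT of an HNF1-type motif. Their letters differ, and a match to one was not barred from overlapping a match to another.
IGFBP3, chr7:45921273-45921522, minus strand: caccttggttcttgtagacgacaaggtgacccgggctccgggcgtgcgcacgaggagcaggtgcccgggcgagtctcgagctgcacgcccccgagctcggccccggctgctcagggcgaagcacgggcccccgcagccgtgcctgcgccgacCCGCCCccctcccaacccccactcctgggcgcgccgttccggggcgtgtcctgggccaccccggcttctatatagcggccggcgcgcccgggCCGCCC
IGFBP5, chr2:216695550-216695799, minus strand: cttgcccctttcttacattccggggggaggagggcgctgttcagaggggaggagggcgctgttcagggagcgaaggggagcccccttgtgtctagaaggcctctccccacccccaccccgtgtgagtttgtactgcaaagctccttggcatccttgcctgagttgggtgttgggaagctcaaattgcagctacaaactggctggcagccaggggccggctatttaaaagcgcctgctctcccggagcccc
IGFBP4, chr17:40443200-40443449, plus strand: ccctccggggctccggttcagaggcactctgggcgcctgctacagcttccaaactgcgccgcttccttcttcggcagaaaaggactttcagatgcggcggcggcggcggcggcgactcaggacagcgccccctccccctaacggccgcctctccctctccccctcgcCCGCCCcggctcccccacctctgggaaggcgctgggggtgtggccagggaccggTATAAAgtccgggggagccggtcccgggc
The IGFBP3 sequence held 2 GC boxes and the IGFBP4 sequence 1 GC box and 1 TATAAA match, while the IGFBP5 sequence held none of these letters. Over 35116 promoters of the same length, 42.6% held a GC box, 10.7% a TATAAA match and 6.23% the HNF1-type motif. Their GC content was 76.0% for IGFBP3, 71.6% for IGFBP4 and 61.2% for IGFBP5, beside a median of 58.0% over all promoters. Promoter entries were given for 8 of the 10 genes and not for IGFBP1 and IGF2. IGFBP1 and IGFBP3 are neighbours on chromosome 7, and IGFBP2 and IGFBP5 are neighbours on chromosome 2.

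Calls were made at an edgeR adjusted p under 0.05, over all features tested in that chemical, with a fold of at least 1.5. Of the 15 rows, 6 were tested in all 8 chemicals, and 78 of 120 combinations of a row and a chemical passed the filter on low counts. In these 78, 15 rises and 18 falls were called between C1 and C5. The median log2 change of the tested members lay between -1.31 (mocetinostat, 11 rows) and 0.10 (tacedinaline, 8 rows), and that of all tested features between -0.00 and 0.08. IGF1_25126, IGFBP1_10877 and IGFBP6_3273 were tested in mocetinostat and not in tacedinaline. The medians therefore cover different rows and do not compare the chemicals. With vorinostat, 3 of 8 tested rows rose and 3 fell, where 22.7% of all tested features rose and 24.9% fell. Tacedinaline gave 4 rises and 3 falls of 8, beside 18.7% and 20.1%. In apicidin 3 rose and 4 fell of 10 (background 13.8% and 15.0%), and in mocetinostat 3 rose and 2 fell of 11 (14.8% and 15.7%). Without its C2 replicate 3 mocetinostat gave 3 rises and 3 falls of 11 (17.6% and 17.4%). Without C3 replicate 1 instead, the counts of members were the same (14.1% and 17.0%). Apicidin without C4 replicate 1 again gave 3 rises and 4 falls of 10 (15.4% and 17.1%), with GHR_2644 called (edgeR adjusted p = 0.0434) and IGF1_25126 not (0.0531). Scriptaid gave 1 rise and 4 falls of 10 (12.8% and 17.0%), and without its C4 replicate 3 it gave 1 rise and 5 falls of 11 (18.6% and 22.6%). The counts were 1 rise and 1 fall of 11 in panobinostat (6.77% and 9.46%). Valproic acid gave 0 rises and 1 fall of 8 (4.84% and 6.22%). No member was called by edgeR in trichostatin A among 12 tested, where 0% of all features rose and 0.0154% fell. In that chemical 6 of the 12, and 1255 of 12993 tested features, had an unadjusted p under 0.05. Without C1 replicate 3 it was 2 of 11 members and 1565 of 12878 features, again with no member called, while 0.163% of all features rose and 0.645% fell. With all libraries the DESeq2 Wald test called 1, GHR_2644 (a log2 change of -0.92, adjusted p = 0.0307). The IGFBP5 rows passed the filter mainly through their higher concentrations, so their counts of calls add nothing to their values. IGFBP5_21128 gave 5 and IGFBP5_3272 gave 3 of the 15 rises. Both are among the rises in vorinostat, tacedinaline and apicidin, and the first is among those in mocetinostat and panobinostat. The counts of rises in these 5 chemicals therefore cannot be read against the shares over all features. A like limit holds for falls. IGF1_25126 gave 5 and IGFBP1_10877 gave 2 of the 18 falls, and both rows were low or at 0 at C5 there. They passed the filter mainly through lower concentrations. The counts of falls in vorinostat, scriptaid, panobinostat, valproic acid and apicidin therefore cannot be read against those shares either.

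**Figure D1:**
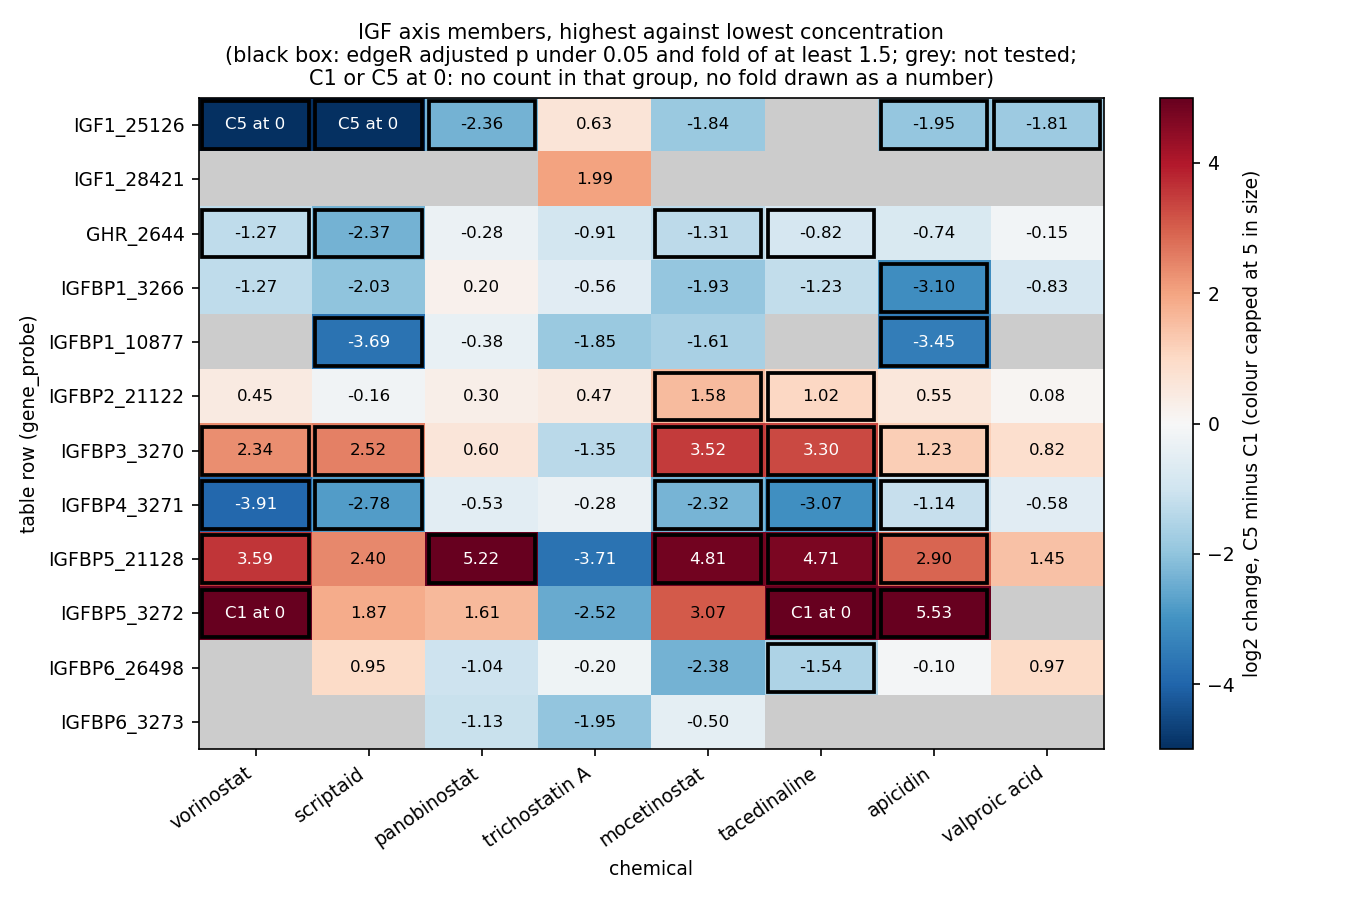
Log2 change from C1 to C5 for the 12 member rows tested in at least 1 chemical (vertical axis), by chemical (horizontal axis), with n = 3 libraries at each end. Red cells are higher at C5 and blue cells lower, black boxes are the 33 calls, grey cells were not tested, and cells that read C1 or C5 at 0 had no count in any library of that group.

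IGF1, a ligand made by the liver, fell at C5 in 5 of the 7 chemicals in which the row IGF1_25126 was tested. With vorinostat its level was 7.47, 27.5 and 18.6 CPM at C1 and 0 in all 3 libraries at C5, which is at least 8.57-fold lower when 3 counts per library are taken as the floor (edgeR adjusted p = 9.51e-06). With scriptaid it went from 15.3, 10.6 and 25.3 CPM to 0 in all 3 libraries, at least 13.4-fold lower (edgeR adjusted p = 0.000335). The decline began below the top: the vorinostat libraries held 13.4, 17.2 and 15.2 CPM at C2 and 0.741, 0 and 1.90 CPM at C4. Between these, at C3, the batches differed, with 1.18, 1.27 and 13.1 CPM. The scriptaid libraries held 4.37, 5.03 and 4.22 CPM at C3, and 2.76, 1.86 and 25.9 CPM at C4, where the third is the library that stood apart. Its trend over the 5 concentrations missed the threshold with that library (fitted log2 change of -2.63, edgeR adjusted p = 0.0852) and passed it without (a log2 change of -4.06, edgeR adjusted p = 0.000804).

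IGF1 also fell in panobinostat and valproic acid, where few other members changed, and in apicidin. Panobinostat libraries read 7.19, 16.7 and 11.5 CPM at C1 and 3.55, 0.234 and 3.19 CPM at C5 (log2 change of -2.36 ± 0.55 SE, edgeR adjusted p = 0.00401), and valproic acid libraries 11.1, 12.9 and 19.6 CPM and 2.18, 3.42 and 7.02 CPM (-1.81 ± 0.47, edgeR adjusted p = 0.0124). In neither did the C1 and C5 libraries overlap. The panobinostat call was lost without replicate 2 (edgeR adjusted p = 0.0750), and that in valproic acid without replicate 1 or replicate 2 (0.157 and 0.107). In apicidin IGF1 went from 4.77, 2.89 and 9.48 CPM to 2.74, 0.931 and 0.705 CPM (-1.95 ± 0.72, edgeR adjusted p = 0.0462). This call ended with the HepaRG batch as a replicate block (edgeR adjusted p = 0.05003), with no filter on low counts (0.103) and without any 1 of the 3 replicates (0.0563 to 0.495). In mocetinostat, values of 3.67, 3.37 and 1.49 CPM at C1 and 0.255, 2.02 and 0 CPM at C5 overlapped, and the change was not called (-1.84, edgeR adjusted p = 0.228). In trichostatin A the C5 libraries (22.2, 13.4 and 12.3 CPM) lay within the spread of C1 (17.4, 12.2 and 0.848 CPM) apart from the highest. In tacedinaline IGF1 read 1.77, 1.23 and 2.80 CPM at C1 and 0, 3.01 and 0 CPM at C5, and was not tested.

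A further IGF1 probe, IGF1_28421, had no count in 73 of 118 libraries and was tested in trichostatin A alone, where it was not called (1.99 ± 1.35, edgeR adjusted p = 0.679). IGF2, the other ligand of the axis, was at or near 0: its rows IGF2_3255 and IGF2_25379 had no count in 115 and 111 libraries and at most 4 and 8 counts elsewhere. IGFALS, which holds IGFs and IGFBP3 in the circulating complex, had no count in 103 libraries and at most 8. At this depth no change of IGF2 or IGFALS was detectable.

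GHR, the receptor through which growth hormone raises hepatic IGF1, fell at C5 in 4 chemicals and rose in none. Scriptaid gave the steepest decline, from 58.5, 43.7 and 38.1 CPM at C1 to 14.0, 9.10 and 3.64 CPM at C5 (log2 change of -2.37 ± 0.43, edgeR adjusted p = 0.000409). In mocetinostat GHR went from 39.4, 33.1 and 29.1 to 10.4, 22.0 and 8.29 CPM (-1.31 ± 0.41, edgeR adjusted p = 0.0235), and the lower level was already present at C2, at 6.80, 15.0 and 20.5 CPM, the last of these in the library that stood apart. Vorinostat libraries went from 37.9, 37.6 and 35.4 CPM to 14.6, 22.5 and 7.83 CPM (-1.27 ± 0.35, edgeR adjusted p = 0.00244). The C1 and C5 libraries did not overlap in any of these 3 chemicals, nor in tacedinaline. Tacedinaline gave the mildest of the 4 calls, from 44.3, 38.2 and 35.9 to 16.3, 27.8 and 21.6 CPM (-0.82 ± 0.33, edgeR adjusted p = 0.0386), with lower values at C4 (10.3, 12.1 and 16.3 CPM) than at C5. In apicidin GHR was called by the trend (-0.89 ± 0.29, edgeR adjusted p = 0.0188) and not at C5 (-0.74 ± 0.33, edgeR adjusted p = 0.0981), and the trend call was lost without replicate 1 (0.130) or replicate 2 (0.0877). The mocetinostat call at C5 was lost without any 1 of the 3 replicates (edgeR adjusted p of 0.0518 to 0.109), and that in tacedinaline without replicate 1 (0.241) or replicate 2 (0.0615). Changes in panobinostat (-0.28) and valproic acid (-0.15) were not called. In trichostatin A GHR read 42.7, 48.2 and 67.3 CPM at C1 and 26.8, 28.5 and 28.8 CPM at C5, without overlap, and was not called by edgeR (-0.91 ± 0.21, adjusted p = 0.198).

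**Figure D2:**
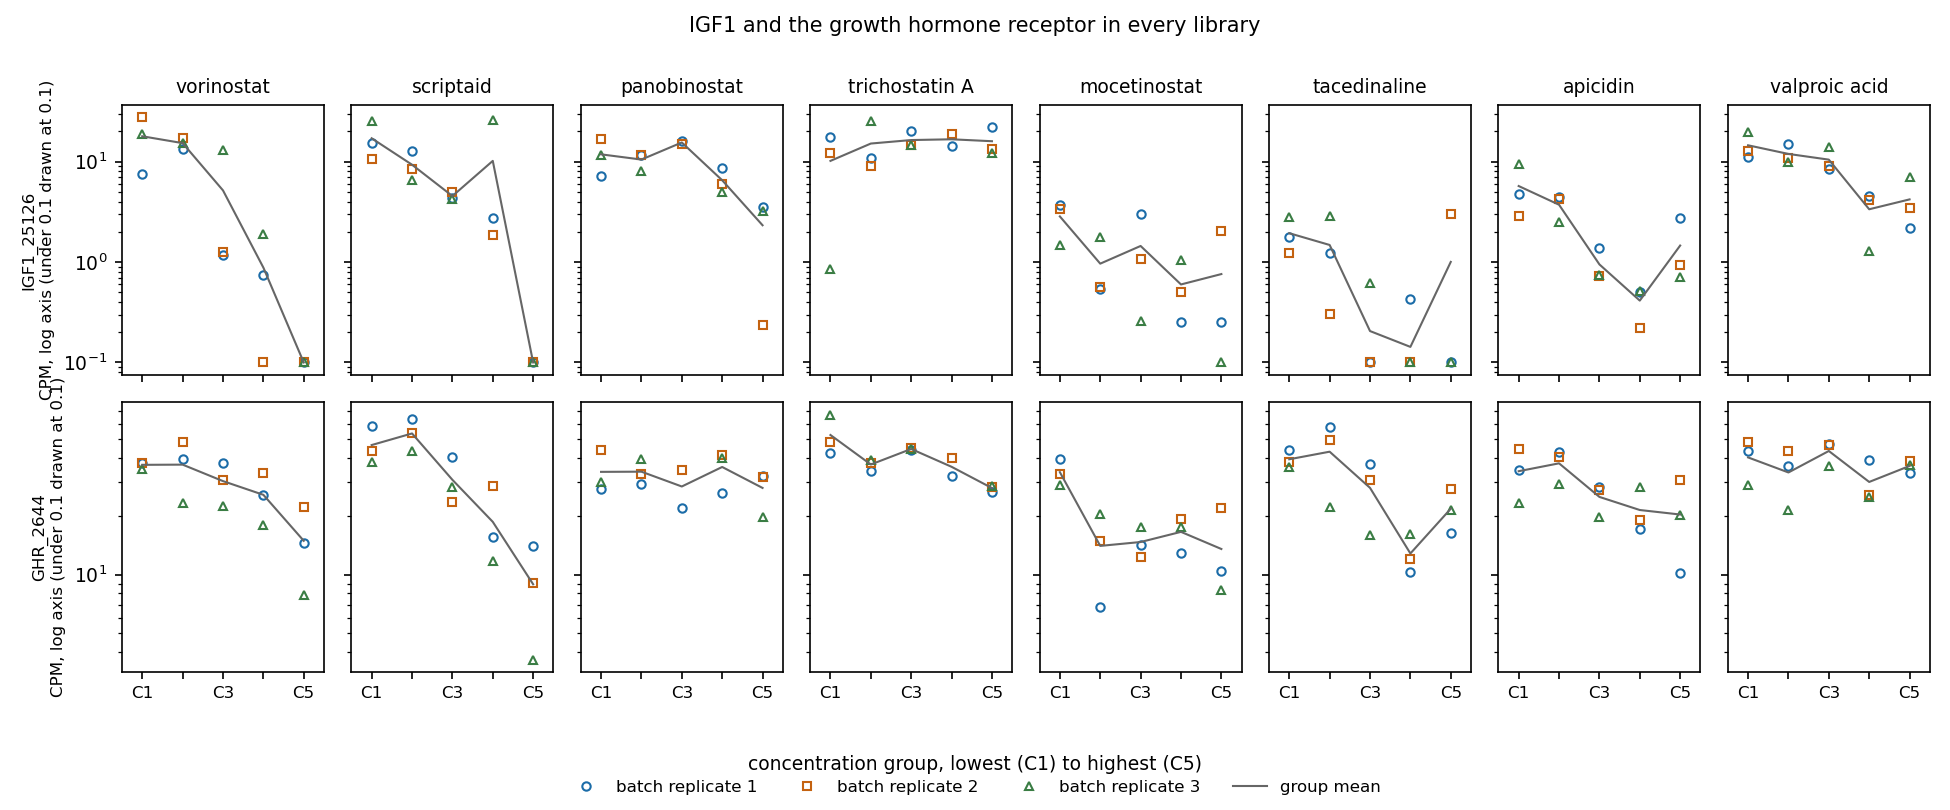
Level in CPM (log axis, values under 0.1 drawn at 0.1) of IGF1_25126 (top) and GHR_2644 (bottom) in every library, against concentration group C1 to C5, with 1 panel per chemical. Symbols are the 3 HepaRG batches and lines join group means: IGF1 is at 0 in all C5 libraries of vorinostat and scriptaid, and scriptaid C4 replicate 3 lies at 25.9 CPM.

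IGFBP3, the most abundant carrier of IGFs in serum, rose at C5 in 5 chemicals. Mocetinostat raised it from 11.3, 9.91 and 8.22 CPM to 96.3, 124 and 116 CPM (log2 change of 3.52 ± 0.30, 11.4-fold, edgeR adjusted p = 2.93e-07). Tacedinaline raised it from 9.75, 12.9 and 13.3 CPM to 96.5, 148 and 122 CPM (3.30 ± 0.30, 9.82-fold, edgeR adjusted p = 3.6e-12). In both benzamides each step of concentration from C2 upward gave a higher group mean. Vorinostat moved it from 8.04, 14.5 and 13.5 to 48.3, 72.2 and 66.5 CPM (2.34 ± 0.35, edgeR adjusted p = 8.73e-07), after lower values at C2 (6.17, 6.10 and 8.11 CPM). In scriptaid the rise lay at the top of the range, with 3.68, 12.4 and 19.6 CPM at C4 and 48.0, 44.9 and 146 CPM at C5 against 14.7, 15.7 and 10.7 CPM at C1 (2.52 ± 0.60, edgeR adjusted p = 0.00352). In none of these 4 did C1 and C5 overlap.

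Apicidin gave the smallest called rise of IGFBP3, from 3.38, 3.11 and 7.43 to 11.0, 12.6 and 8.94 CPM (1.23 ± 0.46, edgeR adjusted p = 0.0497). It was lost without replicate 1 (0.223), without replicate 2 (0.333) and with no filter on low counts (0.112). In valproic acid IGFBP3 was called by the trend (1.17 ± 0.41, edgeR adjusted p = 0.0462) and not at C5, where 9.57, 22.3 and 13.4 CPM stood against 8.03, 9.41 and 8.19 CPM (0.82 ± 0.43, edgeR adjusted p = 0.263). The trend call was lost without any 1 replicate (0.0624 to 0.232). Panobinostat (0.60 ± 0.47) gave no call. In trichostatin A the values were 11.6, 13.9 and 18.7 CPM at C1 and 1.55, 3.97 and 12.0 CPM at C5 (-1.35 ± 0.54, edgeR adjusted p = 0.473), with overlap.

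IGFBP5, a binding protein of bone, muscle and stromal cells, stood at 2.24 CPM or less in every C1 library outside trichostatin A. Its row IGFBP5_21128 rose in 5 chemicals and IGFBP5_3272 in 3. Summed over the 3 libraries, IGFBP5_21128 had 2 counts at C1 and 58 at C5 in mocetinostat, a ratio per effective library size of 33.1 (95% interval 8.76 to 280, for counting error only). In tacedinaline it had 1 and 30 counts (37.1, interval 6.16 to 1512), in panobinostat 1 and 48 (52.2, interval 8.94 to 2105) and in vorinostat 3 and 23 (14.7, interval 4.44 to 76.4). Apicidin moved it from 0.795, 0.445 and 0 CPM to 2.99, 4.42 and 2.82 CPM (log2 change of 2.90 ± 0.90). The edgeR adjusted p of these 5 calls lay between 0.000697 in mocetinostat and 0.0188 in apicidin. Levels at C5 in these 5 chemicals were low, from 1.30 to 8.90 CPM, both in vorinostat. In tacedinaline they were 12.0, 5.90 and 8.14 CPM at C4 and 1.8 to 6.77 CPM at C5, with overlap. The call in panobinostat was lost without any 1 replicate (edgeR adjusted p of 0.0682 to 0.124) and that in apicidin without replicate 2 or replicate 3 (0.144 and 0.147), and in vorinostat the row could not be tested without replicate 2.

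The other IGFBP5 probe gave 0 counts in all C1 libraries of vorinostat and tacedinaline. IGFBP5_3272 then read 10.0, 9.94 and 6.52 CPM at C5 in vorinostat, at least 7.64-fold higher (edgeR adjusted p = 4.58e-05), and 1.63, 10.9 and 8.10 CPM in tacedinaline, at least 4.75-fold higher (edgeR adjusted p = 0.000142). In apicidin it had 1 count at C1 and 59 at C5 (ratio 63.1, interval 10.9 to 2534, edgeR adjusted p = 0.00383), a call lost without replicate 3 (0.0818). Both probes were thus called in the same 3 chemicals, while in mocetinostat and panobinostat, where IGFBP5_21128 was called, the changes of IGFBP5_3272 (3.07 ± 1.37 and 1.61 ± 1.36) were not. In mocetinostat the trend called IGFBP5_3272 (3.18 ± 1.18, edgeR adjusted p = 0.0417), but not with the replicate block (0.0774), with no filter on low counts (0.0508), or without replicate 2 or replicate 3 (0.205 and 0.256). The 10.6 CPM of IGFBP5_21128 in 1 scriptaid library at C5 stood beside 1.81 and 2.08 CPM in the other two, and the change was not called (2.40 ± 1.07, edgeR adjusted p = 0.100).

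In trichostatin A the IGFBP5 values turned on the library that stood apart. Replicate 3 of C1 held 66.4 CPM of IGFBP5_21128 and 30.0 CPM of IGFBP5_3272, where replicates 1 and 2 held 0.210 and 2.03 CPM, and 0.631 and 5.23 CPM. No other library of the series held as much of either row. The C5 libraries held 2.84, 0.248 and 2.10 CPM of IGFBP5_21128. The log2 change was -3.71 ± 1.33 with the library (edgeR adjusted p = 0.418) and 0.67 without it (edgeR adjusted p = 0.893), so its direction turned and it was called in neither case. With no filter on low counts, and that library kept, the fall was called (edgeR adjusted p = 1.53e-05). The same library held 0.848 CPM of IGF1_25126 against 17.4 and 12.2 CPM in its group mates.

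IGFBP4, a binding protein that hepatocytes secrete and that restrains IGF action, fell at C5 in 5 chemicals and rose in none. Vorinostat lowered it from 70.6, 57.9 and 58.8 CPM to 1.82, 7.33 and 1.96 CPM (log2 change of -3.91 ± 0.36, 15.1-fold lower, edgeR adjusted p = 7.07e-11). With tacedinaline it went from 65.6, 57.0 and 76.0 to 3.81, 11.7 and 7.20 CPM (-3.07 ± 0.34, edgeR adjusted p = 4.39e-10), and with scriptaid from 63.9, 56.0 and 52.1 to 5.88, 6.98 and 12.5 CPM (-2.78 ± 0.42, edgeR adjusted p = 8.36e-05). Mocetinostat lowered it from 81.5, 63.7 and 74.7 to 13.0, 15.7 and 15.4 CPM (-2.32 ± 0.32, edgeR adjusted p = 4.4e-05) and apicidin from 53.9, 50.2 and 51.0 to 25.9, 19.8 and 24.5 CPM (-1.14 ± 0.25, edgeR adjusted p = 0.00159). The C1 and C5 libraries did not overlap in any of the 5, and these calls held in every alternative that was run. Vorinostat kept IGFBP4 at 38.5, 29.4 and 25.0 CPM at C4, so that much of its decline lay between C4 and C5, whereas scriptaid was at 26.2, 15.4 and 14.5 CPM by C3. In panobinostat (-0.53 ± 0.22, edgeR adjusted p = 0.103) and valproic acid (-0.58 ± 0.22, edgeR adjusted p = 0.0980) the change at C5 was not called. The trend called the fall in valproic acid (-0.59, a fold at the threshold, edgeR adjusted p = 0.0374) but not with DESeq2 size factors, a stricter filter or DESeq2 (-0.58 in each), whose fold fell short, or without replicate 1 or replicate 2 (0.174 and 0.363). Trichostatin A libraries lay at 49.4, 68.6 and 71.2 CPM at C1 and 41.8, 50.4 and 63.5 CPM at C5, with overlap (-0.28 ± 0.21).

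**Figure D3:**
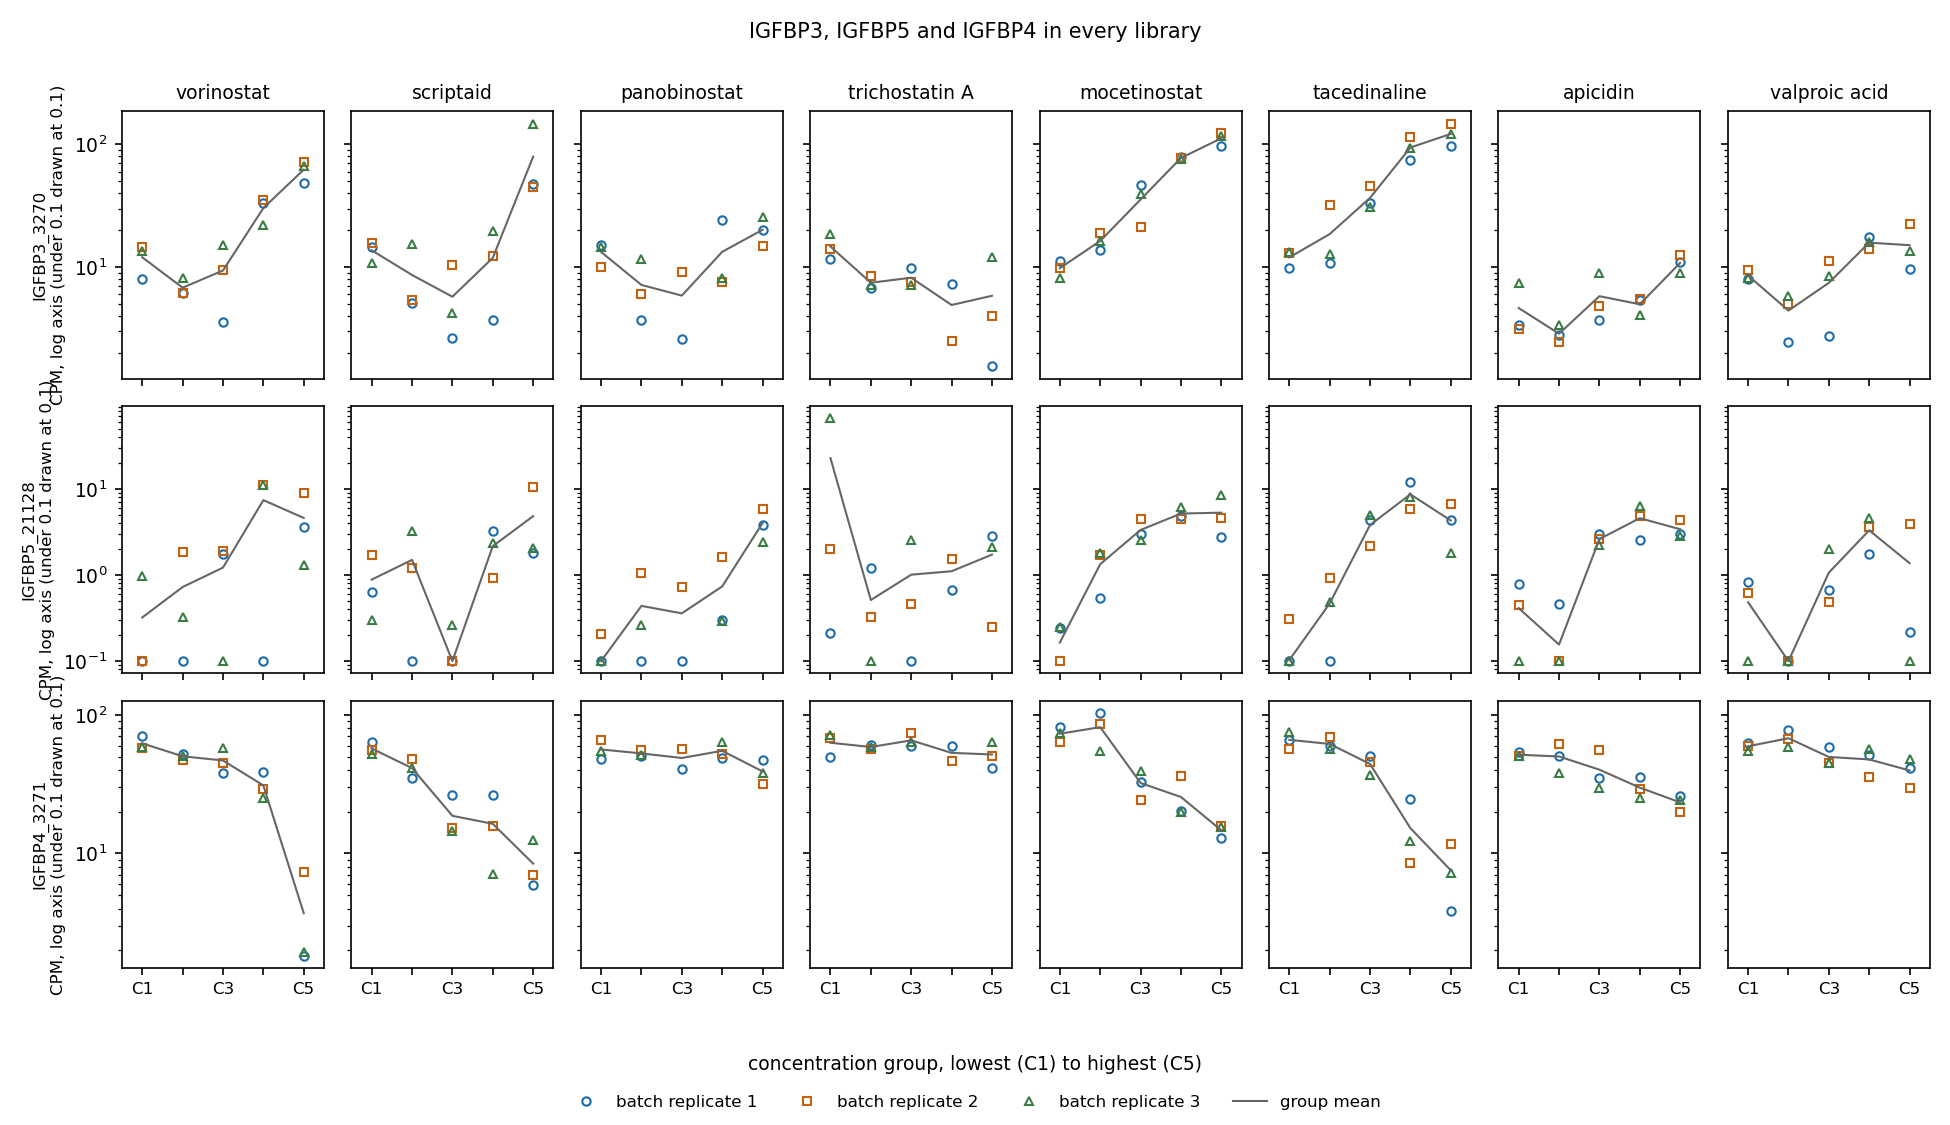
Level in CPM (log axis, values under 0.1 drawn at 0.1) of IGFBP3_3270, IGFBP5_21128 and IGFBP4_3271 in every library, against concentration group C1 to C5, with 1 panel per chemical. Symbols are the 3 HepaRG batches and lines join group means: IGFBP3 climbs to 96.3 to 148 CPM at C5 of both benzamides, IGFBP4 drops to 1.82 to 7.33 CPM at C5 of vorinostat, and trichostatin A C1 replicate 3 stands at 66.4 CPM of IGFBP5_21128.

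IGFBP1, the binding protein that insulin represses in hepatocytes, fell at C5 by both of its rows in apicidin. Its row IGFBP1_3266 went from 10.3, 7.34 and 7.43 CPM to 0.748, 1.63 and 0.470 CPM (log2 change of -3.10 ± 0.69, edgeR adjusted p = 0.00168), and IGFBP1_10877 from 28 summed counts to 2 (a ratio of 0.0764, interval 0.00882 to 0.303, edgeR adjusted p = 0.0268). The latter call was lost without any 1 replicate (edgeR adjusted p of 0.0595 to 0.170), and the former was kept in every alternative. In scriptaid IGFBP1_10877 had 24 counts at C1 and 1 at C5 (ratio 0.0592, interval 0.00144 to 0.363, edgeR adjusted p = 0.0423), a call lost without any 1 replicate (0.0560 to 0.289), and IGFBP1_3266 was not called (-2.03 ± 0.95, edgeR adjusted p = 0.117). Without the scriptaid library that stood apart, IGFBP1_3266 was called there too (-2.02, edgeR adjusted p = 0.0192), as it was with no filter on low counts (0.0374). Before the fall at C5, scriptaid libraries had reached 15.7 and 16.4 CPM of IGFBP1_3266 at C4 beside 0 in the library that stood apart. In mocetinostat the trend called IGFBP1_3266 (-2.91 ± 0.97, edgeR adjusted p = 0.0259), with the lowest libraries at C4 (0, 0.504 and 0.259 CPM), and the call was lost without replicate 1 or replicate 3 (0.0571 and 0.201). The log2 changes of IGFBP1_3266 in the other 5 chemicals lay between -1.27 and 0.20 and were not called. IGFBP1_10877 was not tested in vorinostat (12 summed counts at C1 and 0 at C5), tacedinaline (10 and 0) or valproic acid (20 and 13). A fall particular to apicidin is therefore not shown.

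IGFBP2, by far the most deeply counted row of the set with at least 488 CPM in every library, rose in mocetinostat and tacedinaline. Mocetinostat libraries went from 504, 506 and 513 CPM to 1359, 1536 and 1658 CPM (log2 change of 1.58 ± 0.30, 2.99-fold, edgeR adjusted p = 0.000707), and tacedinaline libraries from 692, 753 and 596 CPM to 1436, 1280.2 and 1421 CPM (1.02 ± 0.12, 2.03-fold, edgeR adjusted p = 4e-09). In mocetinostat the step lay between C1 and C2, where replicates 1 and 2 held 1458 and 1234 CPM and the library that stood apart held 496 CPM. Apicidin (0.55 ± 0.18, edgeR adjusted p = 0.0244) and vorinostat (0.45 ± 0.12, edgeR adjusted p = 0.0029) passed on the p and not on the fold. Scriptaid gave -0.16 at C5, and its library that stood apart, C4 replicate 3, held 3031 CPM, the highest value of the row.

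The chemicals did not share a starting level of IGFBP2 or IGF1. At C1 IGFBP2 averaged 661 ± 88 CPM in apicidin, 508 ± 4.7 CPM in mocetinostat and 681 ± 79 CPM in tacedinaline (SD, n = 3), against 848 to 1420.0 CPM in the single C1 libraries of the other 5 chemicals, with no overlap. At C5 the libraries of mocetinostat and tacedinaline lay within 1136 to 1771 CPM, the range of the 5 chemicals that began higher. An edgeR test among the C1 groups of a plate, added after these values were seen, found 1.16% of 12753 features different among the 5 chemicals of plate H and 1.83% of 12039 among the 3 of plate E. Without trichostatin A C1 replicate 3 the share on plate H was 4.00% of 13150. IGFBP2 was among them on both plates (edgeR adjusted p = 0.00087 and 2.23e-05). IGF1_25126 averaged 1.94 ± 0.80 CPM at C1 of tacedinaline against 17.1 ± 7.5 in scriptaid and 17.9 ± 10.0 CPM in vorinostat on plate E (edgeR adjusted p = 0.000491). On plate H it averaged 5.71 and 2.85 CPM in apicidin and mocetinostat against 10.2 to 14.5 CPM in the others, which differed without trichostatin A C1 replicate 3 (edgeR adjusted p = 0.00524) and not with it (0.357). Of the 15 member rows, 9 were tested on plate H and 7 on plate E, and no other tested row passed. Whether the C1 concentrations had already moved these 2 genes cannot be told from libraries without a solvent control.

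**Figure D4:**
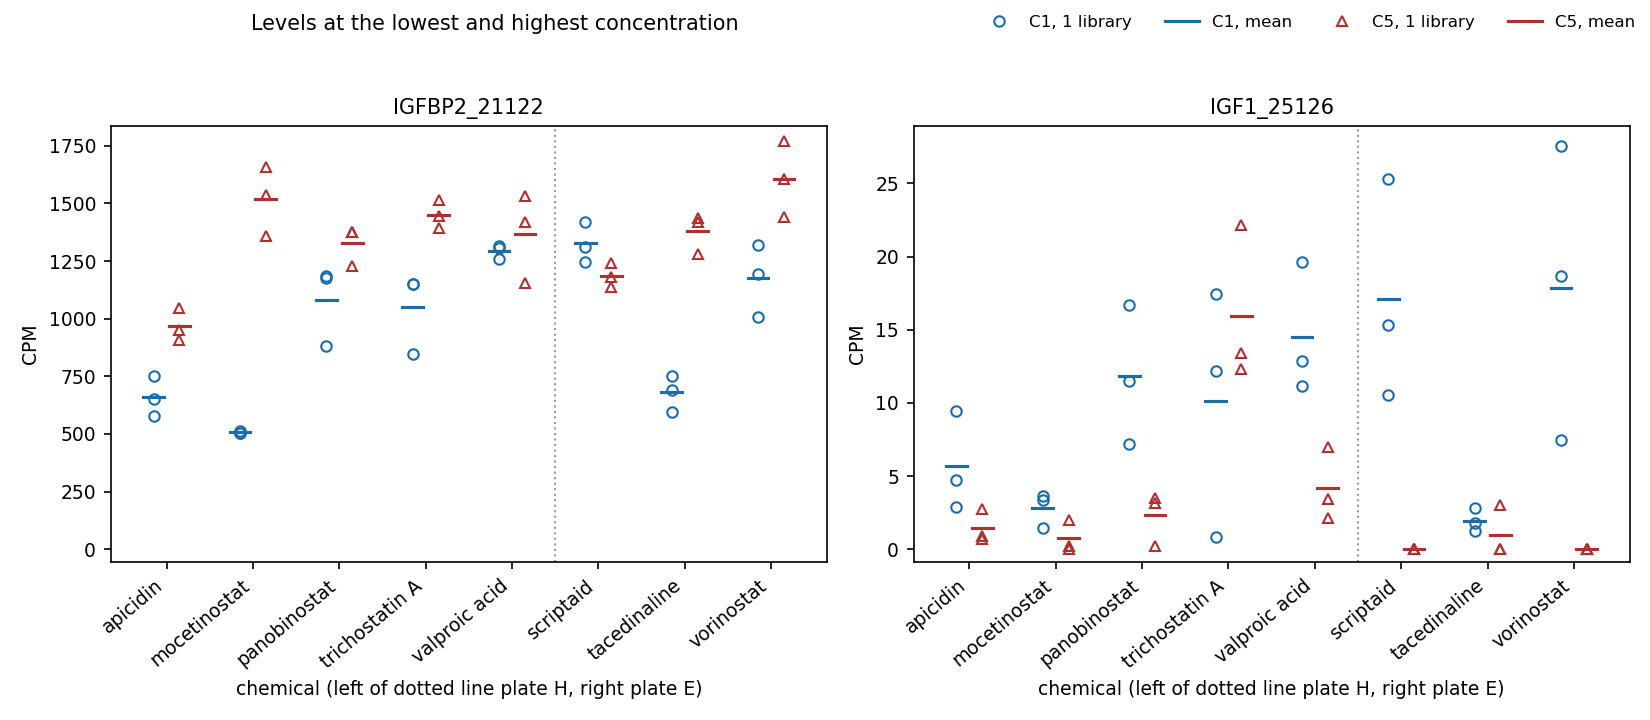
Level in CPM of IGFBP2_21122 (left) and IGF1_25126 (right) at C1 (circles) and C5 (triangles) for each chemical, with plate H left and plate E right of the dotted line. Points are libraries and bars are means of 3: IGFBP2 at C1 is lowest in mocetinostat (504 to 513 CPM), and IGF1 at C5 is 0 in scriptaid and vorinostat.

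IGFBP6, the binding protein that prefers IGF-II, fell at C5 in tacedinaline, where IGFBP6_26498 went from 7.98, 8.02 and 11.5 to 1.63, 5.27 and 2.25 CPM (log2 change of -1.54 ± 0.57, edgeR adjusted p = 0.0248). The call was lost without replicate 1 or replicate 3 (0.116 and 0.23). By the trend it fell in mocetinostat (-2.23 ± 0.81, edgeR adjusted p = 0.0382) and rose in valproic acid (1.21 ± 0.36, edgeR adjusted p = 0.0211). In valproic acid the libraries read 4.94, 4.08 and 4.72 CPM at C1 and 8.48, 11.0 and 7.60 CPM at C5, and the call was lost without replicate 2 or replicate 3 (0.148 and 0.180). The mocetinostat trend was not called with the replicate block (0.0580), without any 1 replicate (0.0611 to 0.226) or without the library that stood apart (0.0551), whereas the change at C5, missed by the main test (-2.38, edgeR adjusted p = 0.0571), was called without that library (0.0389) and, with that library kept, without C3 replicate 1 (0.0497). The difference between these 2 chemicals in the change from C1 to C5 was itself past the threshold (-3.42 ± 0.97 on the log2 scale, edgeR adjusted p = 0.00967), in a pair where 11.6% of all features passed. The row IGFBP6_3273 had at most 16 counts and was tested in 3 chemicals without a call.

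Over all 5 concentrations, 17 rises and 18 falls of members were called by the trend among the same 78 combinations. IGFBP5_21128 gave 5 and IGFBP5_3272 gave 4 of these rises, and IGF1_25126 gave 4 of the falls, with the same limits of the filter. By chemical, 8 of 11 tested rows were called in mocetinostat and 7 of 10 in apicidin, where 35.6% and 34.4% of all features were called. Vorinostat and tacedinaline each had 6 of 8, beside 47.4% and 43.3%. In valproic acid 4 of 8 were called (14.9% of all features), in panobinostat 2 of 11 (17.4%), in scriptaid 2 of 10 (13.0%) and in trichostatin A 0 of 12 (0.0616%). In trichostatin A 5 of the 12, and 1165 of 12993 features, had an unadjusted p under 0.05 in edgeR. Without C1 replicate 3 it was 3 of 11 members and 1676 of 12878 features, with no member called and 0.621% of all features called. Without C4 replicate 3, scriptaid had 3 of 11 members called (22.6% of all features), GHR_2644, IGF1_25126 and IGFBP4_3271. Without C2 replicate 3, mocetinostat had 4 rises and 3 falls of 11 (32.4% of all features).

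Whether the change from C1 to C5 differed among the 8 chemicals was tested in 1 model over all 118 libraries, and 30.3% of 15632 features passed. Of the members, 8 rows passed, IGFBP4_3271 (edgeR adjusted p = 1.03e-14), IGFBP3_3270 (7.08e-09), IGF1_25126 (1.3e-05), IGFBP2_21122 (2.38e-05), IGFBP5_21128 (0.000417), IGFBP5_3272 (0.000818), GHR_2644 (0.00303) and IGFBP6_26498 (0.0332). Over the 7 chemicals other than trichostatin A, IGFBP5_21128 no longer passed (edgeR adjusted p = 0.464) and the other 7 rows did, IGFBP5_3272 at 0.0360. The limit of the filter given above for the IGFBP5 rows holds here too. Neither IGFBP1 row passed (0.164 and 0.192). The concentrations of different chemicals were not matched, so these are differences between responses over each chemical's own range. Each chemical lay on 1 plate, so between chemicals of plates H and E the plate and the chemical cannot be told apart. Depth differed too, with C5 totals of 1061359 to 1879287 counts in vorinostat and 3510895 to 4044071 in panobinostat.

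IGFBP4 separated most pairs of chemicals, with 17 of 28 pairs past the threshold and 13 of these without trichostatin A (adjusted over all features within each pair). Over the 28 pairs pooled, 8.42% of the tests of all features passed, from 0.0128% (panobinostat and valproic acid) to 25.8% (trichostatin A and vorinostat) in single pairs. Among the hydroxamates, its change in panobinostat lay 3.52 ± 0.47 above that in vorinostat on the log2 scale (edgeR adjusted p = 7.14e-09; 10.8% of all features passed in that pair) and 2.34 ± 0.42 above that in scriptaid (edgeR adjusted p = 1.48e-05; 9.81%). Between the benzamides none of 12 members passed the threshold in edgeR or had an unadjusted p under 0.05 (0 in each case), where 8 of 15632 features, 0.0512%, passed. The change in mocetinostat minus that in tacedinaline was 0.75 ± 0.43 for IGFBP4, 0.19 ± 0.63 for IGFBP3 and 0.55 ± 0.29 for IGFBP2 (SE, log2 scale), and with these errors a difference between them cannot be told from none. IGFBP3 separated 11 pairs, 6 of them without trichostatin A, and its change in apicidin minus that in mocetinostat was -2.21 ± 0.67 (edgeR adjusted p = 0.0284), a pair in which 6.45% of all features passed. IGFBP2 separated 8 pairs, each of which held mocetinostat or tacedinaline, whose C1 levels were low. All 6 pairs separated by IGFBP5_21128 held trichostatin A, as did 4 of the 5 separated by IGFBP5_3272.

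The members were set beside each other over 40 group means of log2 CPM, each centred on its chemical's mean, as a description. IGFBP3_3270 and IGFBP5_21128 moved together (r = 0.78), as did GHR_2644 and IGFBP4_3271 (r = 0.77), and IGFBP3_3270 ran against IGFBP4_3271 (r = -0.76). Over all pairs of the 6 rows tested in every chemical, r ran from 0.55 to 0.78 in absolute size, so the named pairs do not stand apart. All rows share libraries and the same 8 concentration series. Of features outside the set, those most like IGFBP4_3271 were FGB_2397 (r = 0.96), which codes for the fibrinogen beta chain of hepatocytes, A1CF_87905 (0.96) and CPB2_25079 (0.95). Those most like GHR_2644 were CYBRD1_27086 (0.91), CHN2_16908 (0.90) and NDUFA6_24942 (0.89). IGFBP3_3270 was most like FOXO6_87786, PGM2L1_20327 and MAP1LC3B_15391 (0.92, 0.92 and 0.90), and IGFBP5_21128 most like USB1_16414, TSPYL2_25649 and ST3GAL5_6802 (each 0.89).

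Other genes of the axis were read from 6 lists, and those called in the same direction in at least 4 chemicals are named, with IGF1R, JAK2 and FOXO1 added for their roles after their values were seen. A test here is 1 row in 1 chemical, so the tests of a list repeat the same few rows and are not independent. STAT5B and CISH gave most falls of growth hormone signalling, and CCN1 and CCN2 most rises of the IGFBP-related proteins. The lists were also chosen with earlier results known, so their shares describe these rows and do not show a shift of a list. In some lists the rows tested differed between chemicals, so the medians of a list do not compare the chemicals. Of 10 rows of IGF receptors and adaptors, 17 rises and 6 falls were called in 76 tests over the 8 chemicals (22.4% and 7.89%), where over the 8 chemicals pooled 11.6% of the tests of all features were called as rises and 13.4% as falls. Its median log2 change in a chemical ran from -0.01 (trichostatin A) to 0.70 (mocetinostat), beside -0.00 to 0.08 for all tested features. The type 1 receptor IGF1R, which carries the IGF signal, was tested in all 8 and called in none (log2 changes of -1.001 to 0.70). IRS2, the docking protein downstream of the insulin and IGF receptors, rose in 5 chemicals with a highest change of 2.43 in apicidin. GRB14, an adaptor that inhibits the insulin receptor, rose in 4, and the insulin receptor INSR fell in 4, with -1.36 in scriptaid as its lowest value.

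Of 8 rows for growth hormone signalling, 14 falls and 1 rise were called in 44 tests (31.8% and 2.27%, against the pooled 13.4% and 11.6%). The list's median log2 change in a chemical ran from -1.65 (tacedinaline) to -0.17 (trichostatin A). The transcription factor STAT5B fell in 5 chemicals, from -0.78 in panobinostat to -2.16 in vorinostat among the calls, and its value in trichostatin A was 0.04. CISH, a STAT5 target that feeds back on the receptor, fell in 5 and had no count in the 3 C5 libraries of mocetinostat against 25 to 51 counts at C1. The kinase JAK2 fell in 1 chemical.

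Among 6 rows of IGFBP proteases and their inhibitors, 5 rises and 9 falls were called in 34 tests (14.7% and 26.5%, against 11.6% and 13.4%). Their medians ran from -1.45 (vorinostat) to 0.43 (panobinostat). PAPPA, the protease that cleaves IGFBP4, fell in 4 chemicals, vorinostat (-3.34), scriptaid (-1.97), mocetinostat (-3.75) and tacedinaline (-4.32). ADAM12, which cleaves IGFBP3 and IGFBP5, fell in 5, with -3.53 in vorinostat as its lowest value. The IGFBP-related proteins gave 11 rises and 2 falls in 32 tests (34.4% and 6.25%, against 11.6% and 13.4%). Their medians ran from -0.01 (scriptaid) to 1.12 (vorinostat). CCN1 and CCN2, matricellular proteins with an IGFBP-like domain, each rose in 5 chemicals, with highest changes of 2.98 in vorinostat and 2.53 in mocetinostat. The IGF2 mRNA-binding proteins gave 1 rise and 1 fall in 16 tests (6.25% of each).

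Regulators of hepatic IGF genes gave 16 falls and 3 rises in 60 tests (26.7% and 5.00%, against 13.4% and 11.6%). Their medians ran from -1.36 (mocetinostat) to -0.08 (vorinostat). HNF4A, a hepatocyte transcription factor, fell in 6 chemicals, with changes of -4.59 in mocetinostat, -4.52 in tacedinaline, -4.21 in scriptaid, -4.01 in vorinostat, -3.19 in apicidin and -1.74 in panobinostat. Its values in valproic acid (-1.19) and trichostatin A (0.16) were not called. FOXO1, which drives IGFBP1 when insulin is low, rose in 3 chemicals.

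**Figure D5:**
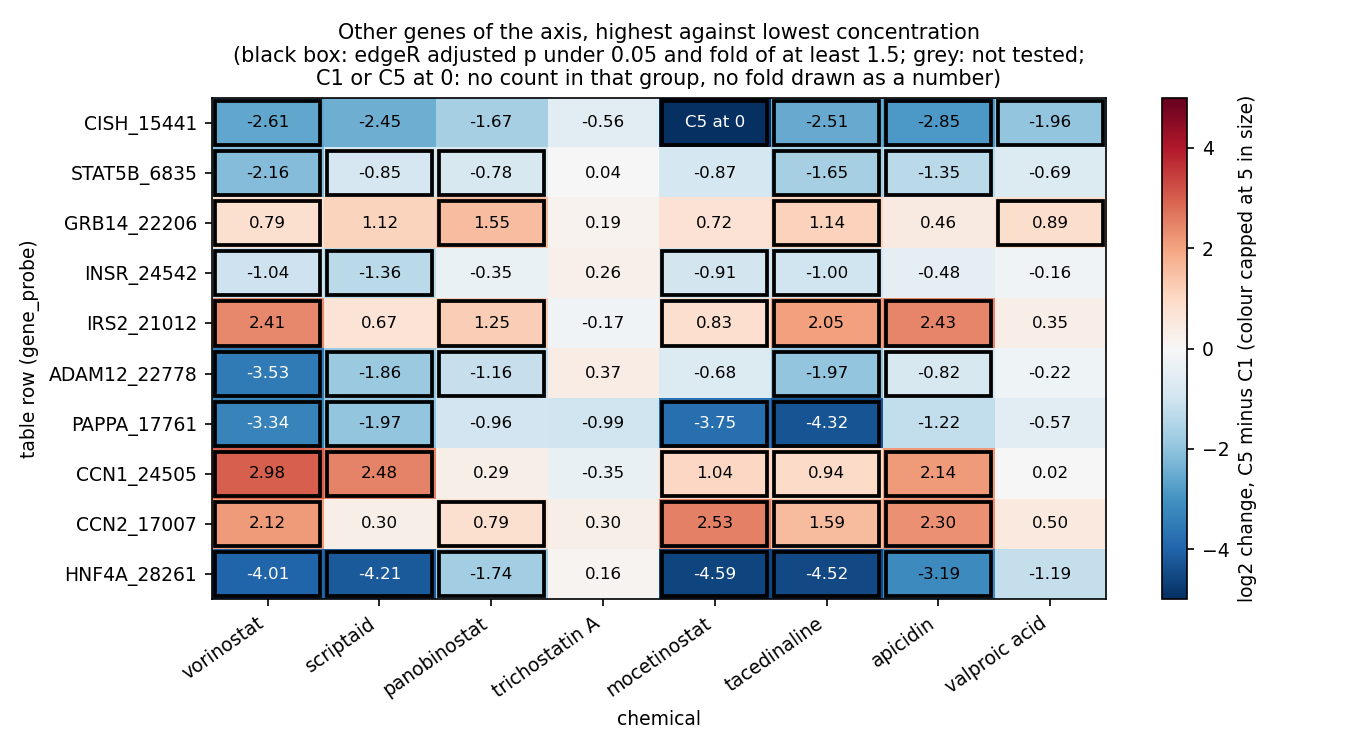
Log2 change from C1 to C5 for the 10 further rows of the axis called in the same direction in at least 4 chemicals (vertical axis), by chemical (horizontal axis), with n = 3 libraries at each end. Red cells are higher at C5 and blue cells lower, black boxes are calls, and CISH had no count at C5 of mocetinostat: HNF4A is the row with most calls (6), and no cell of trichostatin A is boxed.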

How the data were processed

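RNA of 118 HepaRG lysates was measured with whole-transcriptome TempO-Seq, and the values as deposited are whole-number counts of reads for each probe, which the authors had not normalized. The submitters' processing notes name bcl2fastq 2.20.422, fastp 0.23.2, STAR 2.7.10b and DESeq2 1.38.0, and the genome build is not given in the sources used here. Of 22069 rows, 1 that lacked a count in 88 libraries was left out. All libraries passed a minimum of 1e+05 counts, and totals ranged from 1061359 to 5250260. Levels are CPM after TMM scaling; probes differ in efficiency, so levels were not compared between rows.

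Each chemical was fitted on its own over its 5 concentrations with edgeR 4.0.16 (quasi-likelihood F test, filterByExpr, TMM, Benjamini-Hochberg over all tested features; limma 3.58.1, R 4.3.3), for C5 against C1 and for a slope on log2 concentration. A call needed an adjusted p under 0.05 and a fold of at least 1.5. The SE is the log2 change over the square root of its F. Differences among chemicals came from 1 fit over 40 groups. Groups at 0 were given a floor of 3 counts per library, and ratios of summed counts have exact conditional binomial 95% intervals. Intervals and floors cover counting error only. Alternatives were other size factors, no filter, a mean of at least 10 counts, DESeq2 1.42.0, the HepaRG batch as a block, each replicate left out, and, chosen after seeing the data, the 3 libraries that stood apart or the 2 next to them left out. The labels tie replicate numbers to HepaRG batches: deviations of libraries of the same batch correlated with a median r of 0.0299 (232 pairs), and of different batches with -0.0122 (464 pairs). On simulated counts for tacedinaline (12461 features), the C5 test recovered 69.1% of 97 tested changes of 1.5 on the log2 scale. It recovered 97.8% of 90 tested changes of 3, and called 9 unchanged features. Far fewer features were changed there than were called in the real libraries, so these shares need not hold for the members.

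The members, gene lists and markers were chosen with earlier results of these data known. Every member row is named; of other axis genes, those called in the same direction in at least 4 chemicals, at most 3 a list; and for 4 member rows the 3 features most correlated over group means.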

Additional observations from a re-analysis of the deposited data

Results flagged for a closer look

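The change from C1 to C5 differed among the 8 chemicals for 8 member rows in 1 edgeR model over all libraries. The edgeR adjusted p was 1.03e-14 for IGFBP4_3271, 7.08e-09 for IGFBP3_3270, 1.3e-05 for IGF1_25126 and 2.38e-05 for IGFBP2_21122. It was 0.000417 for IGFBP5_21128, 0.000818 for IGFBP5_3272, 0.00303 for GHR_2644 and 0.0332 for IGFBP6_26498. IGFBP5_21128 no longer differed without trichostatin A (edgeR adjusted p = 0.464), where C1 replicate 3 held 66.4 CPM of it. IGFBP5_3272, of which that library held 30.0 CPM, still differed without trichostatin A (edgeR adjusted p = 0.0360).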

How the results depend on the processing

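Of the 33 calls at C5, 21 were unchanged in every alternative that gave a value and 12 were lost in at least 1, of which 2 (IGF1_25126 and IGFBP3_3270 in apicidin) were lost with all replicates in use. With the HepaRG batch as a replicate block 32 of the 33 calls were kept and no member was added. With no filter on low counts 31 were kept and 3 added, and DESeq2 kept all 33 and added 3. The stricter filter tested and kept 25. Without apicidin C4 replicate 1 and mocetinostat C3 replicate 1, 11 of the 12 calls of these chemicals were kept and 2 rows added. The count in apicidin went from 7 to 4 with the stricter filter and to 3 to 5 without 1 replicate. In panobinostat it went from 2 to 1 with the stricter filter and to 0 to 1 without 1 replicate, and in valproic acid from 1 to 0 to 1 without 1 replicate. Trichostatin A had 1 call with no filter (IGFBP5_21128) and 1 with the DESeq2 Wald test (GHR_2644). Rows that differed among the chemicals numbered 4 to 7 without 1 replicate, and C1 levels on plate H differed for 2 rows without trichostatin A C1 replicate 3.

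Some changes that were not called turned direction. IGFBP5_21128 in trichostatin A was 0.67 without C1 replicate 3, alone or with the other libraries that stood apart, and as low as -4.89 without replicate 1. Without 1 replicate, log2 changes ranged from -1.14 to 0.58 for IGFBP6_26498 in apicidin, -1.14 to 0.36 for IGFBP6_3273 in mocetinostat, -0.84 to 0.18 for IGFBP1_10877 in panobinostat and -0.34 to 0.71 for IGFBP1_3266 in panobinostat. The cause was not tested. Rows near 0 at C1, and IGF2 and IGFALS throughout, are limited by depth.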
